A study of Mus musculus with 4 samples.

Results

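The collagens that shape cartilage were followed through 8 genes: Col2a1 for collagen II, Col9a1, Col9a2 and Col9a3 for collagen IX, Col10a1 for collagen X, Col11a1 and Col11a2 for collagen XI, and Col27a1 for collagen XXVII. The genes were chosen by symbol. All 8 were found among the 17575 entries that the 4 libraries listed in total, all 8 were listed in every library, and all 8 were among the 13773 genes that passed the filter on low counts. The data were RNA-seq of plated rib chondrocytes, the cells of cartilage, released from the rib cartilage of C57/Bl6 mice aged 10 days by digestion with collagenase II. The wild type group had 2 libraries. The other, also of 2 libraries, carried Col2Cre(Tg) together with Kdm6a(fl/fl) and Kdm6b(fl/fl), and is called knockout here. In that genotype a Cre recombinase under Col2 control, that is, under the promoter of a collagen described below, acts on floxed alleles of Kdm6a and Kdm6b, which encode demethylases of histone H3 lysine 27. The labels do not give whether the wild type mice carried Cre or floxed alleles, nor whether libraries of the same group stem from different mice, so that p-values measure the spread between these libraries, which may be technical. The series' design text speaks of triplicates, and 2 libraries a group were analysed here.

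A collagen molecule is a triple helix of chains. Collagen II is built from the chain of Col2a1 alone and forms the bulk of the cartilage fibril. Collagen XI lies in the core of the same fibril and joins the chains of Col11a1 and Col11a2 with a modified product of Col2a1. Collagen IX takes a chain from each of Col9a1, Col9a2 and Col9a3 and sits on the fibril surface, collagen XXVII is a fibrillar collagen of developing cartilage, and collagen X is a network-forming collagen made by hypertrophic chondrocytes, the enlarged cells that precede bone. SOX9, with SOX5 and SOX6, is the classical activator of Col2a1, Col9a1 and Col11a2, while RUNX2 and MEF2C are known for activating Col10a1.

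The libraries held 31178248 to 32332044 expected counts each and listed 16199 to 16514 genes. The targeted genes went with the labels. Kdm6a stood at 52.6 and 56.9 counts per 1000000 (CPM) in wild type replicates 1 and 2 and at 28.6 and 31.4 CPM in knockout replicates 1 and 2 (log2 fold change -0.87, SE 0.087; adjusted p = 0.00489, edgeR's quasi-likelihood test with Benjamini-Hochberg adjustment, as for every adjusted p of edgeR below). Kdm6b stood at 131 and 118 CPM in wild type and at 51.4 and 46.2 CPM in knockout (log2 fold change -1.35, SE 0.091; edgeR adjusted p = 0.00174). The 9 chondrocyte markers outside the collagens were all present at 1 CPM or more and summed to 10568 and 10076 CPM in wild type and to 13281 and 11887 CPM in knockout, higher in both knockout libraries, although 2 of the 9 rose and 3 fell when tested gene by gene. Acan and Hapln1 made up most of this sum, and neither passed the test (edgeR adjusted p = 0.0687 and 0.143). Of the 11 marker lists for other cells, those of fibroblast and perichondrium (682 and 863 CPM against 427 and 612 CPM, 1 of 8 tested fell) and macrophage (175 and 174 against 94.5 and 110, 2 of 7 tested fell) summed lower in both knockout libraries. So did those of endothelium (124 and 112 against 96.1 and 81.5, 3 of 7 tested fell), erythroid cells (27.2 and 33.04 against 13.3 and 15.3, 3 of 7 tested fell) and osteoblast (8.85 and 8.65 against 3.48 and 4.53, 1 of 6 tested fell). Only 2 of the 7 osteoblast, 4 of the 8 erythroid and 6 of the 10 macrophage genes averaged 1 CPM or more. The osteoblast gene that fell, Bglap, was not among these. Most of the macrophage sum was Cd14, which fell, at 125 and 128 CPM in wild type and 62.2 and 77.1 CPM in knockout. The smooth muscle list summed higher, at 57.6 and 69.7 CPM against 184 and 184 CPM, with Acta2 and Tagln rising and 3 of its 5 genes under 1 CPM. The sums of the lists for tendon (11.1 to 14.0 CPM over the 4 libraries), skeletal muscle (5.78 to 21.5), adipocyte (10.9 to 13.8), neutrophil (16.8 to 71.9) and osteoclast (51.8 to 69.5) overlapped between the groups. Of all tested genes taken singly, 30.9% were higher and 30.7% lower in both knockout libraries in CPM. Sums without overlap are thus not particular to these lists. EdgeR called 3.62% of all tested genes higher and 5.63% lower. Defining markers lay at different levels: the macrophage genes C1qa, C1qb and C1qc at 0 to 0.186 CPM, but Csf1r at 3.09 to 6.54 CPM, Ptprc at 0.962 to 4.43 CPM and Cd68 at 13.2 to 17.7 CPM. Of the osteoblast genes, Sost lay at 0 to 0.0928 CPM, Sp7 at 0.959 to 2.31 CPM and Phex at 1.11 to 2.204 CPM. The part of these markers in the collagen differences below was not tested, and in bulk RNA fewer cells of a type and less RNA per cell cannot be told apart.

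Per length of transcript, the chains covered a wide range. The level used is FPKM, fragments per kilobase of transcript per 1000000. Col2a1 had 5220 and 4767 FPKM in wild type replicates 1 and 2 and 7547 and 7426 FPKM in knockout replicates 1 and 2. It ranked 2nd of all genes by FPKM in both wild type libraries and 1st in both knockout libraries, while by expected counts it was 2nd in all 4. Col10a1 was next among the chains, with 1693 and 1945 FPKM in wild type and 2817 and 2173 FPKM in knockout. Knockout replicate 1 was the high library for this gene, 29.7% above knockout replicate 2, while the wild type libraries lay 14.9% apart.

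Col11a1 had 562 and 585 FPKM in wild type and 930 and 860 FPKM in knockout. Col9a3 had 591 and 529 FPKM in wild type and 713 and 686 FPKM in knockout. In wild type these genes held neighbouring places that overlapped, whereas both knockout libraries had Col11a1 above Col9a3. Col9a2 followed with 415 and 406 FPKM in wild type and 469 and 427 FPKM in knockout. Col11a2 lay just under it, with 366 and 375 FPKM in wild type and 399 and 378 FPKM in knockout. The ranges of Col9a2 and Col11a2 were close and did not overlap within either genotype. Col9a1 was the lowest chain of collagen IX, with 182 and 203 FPKM in wild type and 285 and 306 FPKM in knockout. Col27a1 was the lowest of the 8, with 39.6 and 37.7 FPKM in wild type and 73.2 and 64.1 FPKM in knockout, ranks 1742 and 1749 of all genes in wild type and 932 and 1061 in knockout.

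**Figure D1:**
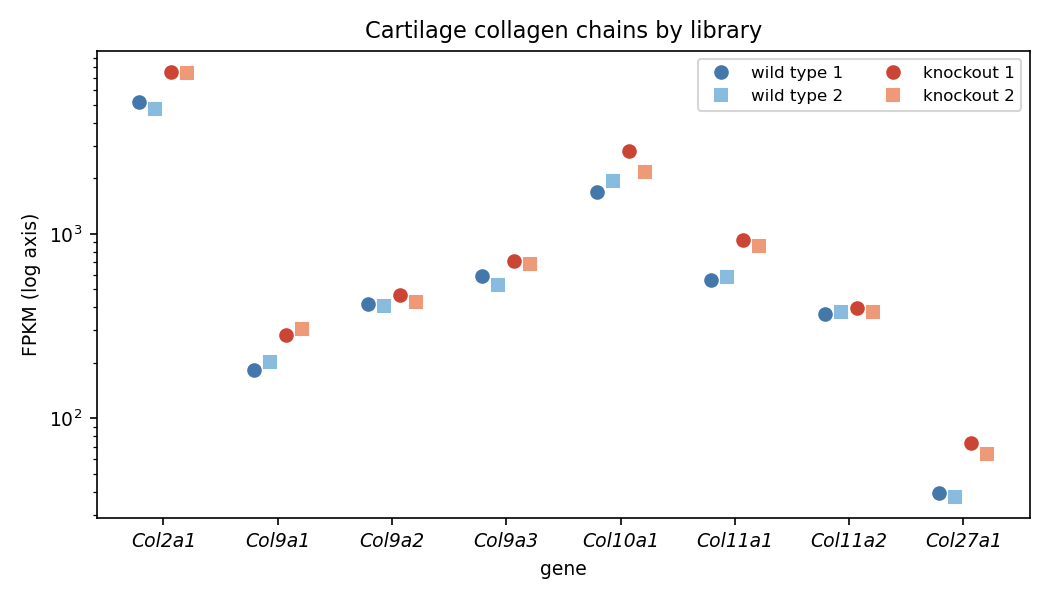
FPKM of the 8 chains (log axis) in each of the 4 libraries; blue symbols are wild type, red symbols knockout, and each symbol is 1 library. Col2a1 lies at the top and Col27a1 at the bottom in every library, and the knockout symbols lie above the wild type symbols for all 8 genes, as for 34.7% of all tested genes, and by the least for Col11a2.

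The mean deposited transcript length of Col2a1, which has 2 listed transcripts, was 4945 bases in all 4 libraries. That of Col9a1, also with 2 transcripts, was 3857 and 3848 bases in wild type and 3826 and 3844 bases in knockout, so the mix of its long and short transcripts that sets this mean differed little between libraries. Expected counts were whole within 0.005 in every library for 7 of the 8 genes. Those of Col9a3 carried fractions.

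As a share of all expected counts, the 8 chains together made up 4.14% and 3.999% in wild type and 6.06% and 5.71% in knockout. The means were 4.07% ± 0.098 (SD, n = 2) and 5.88% ± 0.24 (SD, n = 2), a ratio of 1.45. Col2a1 alone held 2.60% and 2.37% of the counts in wild type and 3.76% and 3.70% in knockout. Collagen X held 0.533% and 0.612% in wild type and 0.887% and 0.684% in knockout. Col11a1 held 0.413% and 0.430% in wild type and 0.684% and 0.632% in knockout, while Col11a2 stayed between 0.207% and 0.226% in all 4 libraries. Col27a1 held the least, 0.0305% and 0.0290% in wild type and 0.0564% and 0.0495% in knockout. At this depth the 95% Wilson interval reached at most 2.06% of the share to either side for Col27a1 and 0.225% for Col2a1, for counting error only. In FPKM, the gap between the knockout libraries of Col2a1, 1.63% of the lower value, and between its wild type libraries, 9.50%, was wider than that interval of its share.

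The comparison of knockout with wild type asked which chains changed when both demethylases were targeted. Col2a1, Col9a1, Col11a1 and Col27a1 rose by 1.46- to 1.73-fold, and Col9a2, Col9a3, Col10a1 and Col11a2 did not pass the test. In edgeR, 4 of the 8 genes rose and 0 fell, and at an unadjusted p under 0.05 edgeR had 6 higher and 0 lower. In DESeq2 6 rose and 0 fell. Over all tested genes edgeR called 3.62% higher and 5.63% lower in knockout, and DESeq2 called 5.26% higher and 7.8% lower. An unadjusted p under 0.05 in edgeR, in either direction, was held by 4016 of the 13773 tested genes. The median log2 fold change of the 8 was 0.48, beside 0.0044 over all tested genes. The 498 higher and 776 lower calls of edgeR put 39.1% of the calls on the higher side, a share that was 53.5% (679 higher, 590 lower) when library size was counted without the 20 most abundant genes, and 52.5% (545 higher, 494 lower) and 52.6% (562 higher, 506 lower) with limma on log2(FPKM + 0.1) and log2(FPKM + 1). The same 4 chains passed and the other 4 did not in each of these fits.

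Among the chains of the fibril, Col2a1 had 26008 and 24370 CPM in wild type and 37111 and 36603 CPM in knockout. The groups did not overlap, and it rose by 0.55 on the log2 scale (SE 0.085; edgeR adjusted p = 0.0156), a fold of 1.46. Col11a1 had 4126 and 4410 CPM in wild type and 6744 and 6248 CPM in knockout. Its groups did not overlap either, and it rose by 0.61 on the log2 scale (SE 0.085; edgeR adjusted p = 0.0125), a fold of 1.52. Col11a2, the partner chain of Col11a1, had 2068 and 2177 CPM in wild type and 2226 and 2114 CPM in knockout. Its groups overlapped in CPM, and its log2 fold change was 0.03 (SE 0.078; edgeR adjusted p = 0.819). Without knockout replicate 1 and without wild type replicate 1 this value was -0.0042 and -0.0036, so its sign depended on the library left out. Col27a1 had 305 and 298 CPM in wild type and 557 and 489 CPM in knockout. It had the highest fold of the 8, 1.73, or 0.79 on the log2 scale (SE 0.087; edgeR adjusted p = 0.00671).

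Among the chains of collagen IX, Col9a1 had 707 and 807 CPM in wild type and 1081 and 1169 CPM in knockout. Both knockout libraries lay above both wild type libraries, and its log2 fold change was 0.57 (SE 0.093; edgeR adjusted p = 0.0181), a fold of 1.49. Col9a2 had 1142 and 1145 CPM in wild type and 1273 and 1163 CPM in knockout. Its groups were adjacent without overlap, and the log2 fold change of 0.09 was close to its SE of 0.079 (edgeR adjusted p = 0.480). Col9a3 had 1685 and 1548 CPM in wild type and 2006 and 1935 CPM in knockout. Its log2 fold change of 0.29 (SE 0.081) did not pass in edgeR (adjusted p = 0.0761) and passed in DESeq2 (adjusted p = 0.0192), the lowest of the adjusted p-values over 18 alternative settings, which reached up to 0.688.

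Collagen X was the least even of the set. Col10a1 had 5331 and 6284 CPM in wild type and 8755 and 6769 CPM in knockout, with groups that did not overlap. Its log2 fold change of 0.42 (SE 0.14), a fold of 1.34, did not pass in edgeR (adjusted p = 0.118) and passed in DESeq2 (adjusted p = 0.0291), within adjusted p-values of 0.000906 to 0.571 over the 18 settings. Without knockout replicate 1 the log2 fold change was 0.22 (edgeR adjusted p = 0.288), and without knockout replicate 2 it was 0.60 (edgeR adjusted p = 0.00793). In CPM, 7 of the 8 genes were higher in knockout without overlap between the groups, as were 30.9% of all tested genes, and in FPKM this held for all 8, as for 34.7% of all tested genes.

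The call of the 4 chains depended on both wild type libraries in edgeR: without wild type replicate 1 or without wild type replicate 2 edgeR called 0 of all genes, where the unadjusted p was under 0.05 for 3442 and 2587 genes, and the 4 chains had adjusted p-values of 0.112 to 0.220. DESeq2, on the same reduced sets, called 4 and 5 of the 8 chains higher, and 188 and 124 of all genes higher.

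**Figure D2:**
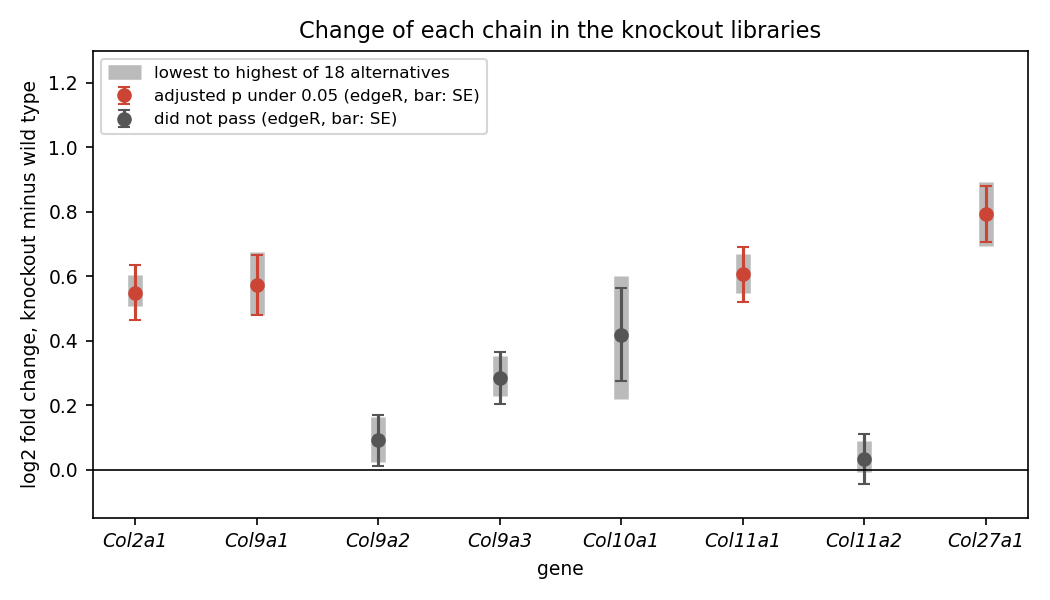
log2 fold change of each chain, knockout minus wild type, from edgeR (points; bars are 1 SE; red where the adjusted p was under 0.05), with the lowest to highest value over 18 alternative settings as a grey band. The bands of 7 genes lie wholly above 0, and that of Col11a2 crosses it.

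The authors' deposited table gave the same directions from the same libraries. In the authors' deposited table, the mean normalized count of Col2a1 was 799379 in wild type and 1169234 in knockout (log2 fold change 0.55; adjusted p = 2.32e-08, DESeq2). For Col9a1 the authors' deposited table gave 24035 and 35661 (0.57; adjusted p = 2.73e-06, DESeq2), for Col11a1 a log2 fold change of 0.60 (adjusted p = 1.03e-08, DESeq2), and for Col27a1 9592 and 16579 (0.79; adjusted p = 4.22e-12, DESeq2). Col9a3 (0.29; adjusted p = 0.0277, DESeq2) and Col10a1 (0.41; adjusted p = 0.0411, DESeq2) were past 0.05 in the authors' deposited table too, which makes 6 of the 8 chains, while Col9a2 (adjusted p = 0.742, DESeq2) and Col11a2 (adjusted p = 0.913, DESeq2) were not. Higher values with an adjusted p under 0.05 were given for 3.33% of all genes in the authors' deposited table. The authors' own mark for a rise, which 0.394% of genes carried, was on 0 of the 8. That mark was on 69 genes, while 583 were higher with an adjusted p under 0.05, so this threshold alone does not set it.

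Because the chains of a molecule are made from separate genes, the ratio of their FPKM was compared within collagens IX and XI. Col11a1 over Col11a2 was 1.54 and 1.56 in wild type and 2.33 and 2.27 in knockout, a 1.49-fold difference between groups that did not overlap. Col9a1 over Col9a2 was 0.439 and 0.501 in wild type and 0.607 and 0.715 in knockout, 1.41-fold higher. Col9a1 over Col9a3 was 0.309 and 0.384 in wild type and 0.399 and 0.446 in knockout, 1.23-fold higher. Col9a2 over Col9a3 went the other way, 0.702 and 0.767 in wild type and 0.658 and 0.623 in knockout. In each of these pairs the knockout libraries lay on one side of the wild type libraries. With 2 libraries against 2 the exact permutation test, 2-sided, cannot go below p = 0.333, which each of these 4 ratios reached.

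Across collagens, the ratio of Col2a1 to Col11a1 was 9.30 and 8.15 in wild type and 8.11 and 8.64 in knockout, with groups that overlapped (exact permutation p = 0.667). Col2a1 over Col11a2 was 14.3 and 12.7 in wild type and 18.9 and 19.6 in knockout, without overlap. Col9a1 over Col2a1 was 0.0349 and 0.0426 in wild type and 0.0377 and 0.0412 in knockout, again overlapping (exact permutation p = 1). Collagen X kept no fixed ratio to collagen II: Col10a1 over Col2a1 was 0.324 and 0.408 in wild type and 0.373 and 0.293 in knockout, and the groups overlapped (exact permutation p = 0.667). Col27a1 over Col2a1 was 0.00759 and 0.00790 in wild type and 0.00969 and 0.00863 in knockout, 1.18-fold higher. Col9a2 over Col2a1 was 0.0795 and 0.0852 in wild type and 0.0621 and 0.0576 in knockout, and Col9a3 over Col2a1 was 0.113 and 0.111 in wild type and 0.0944 and 0.0923 in knockout. These last ratios were added after their values were seen, and both were lower in knockout without overlap. Of the 13 ratios compared, which share chains with each other, 10 did not overlap between the groups, beside 30.9% of single genes higher and 30.7% lower without overlap in CPM, and none could reach an adjusted p under 0.05 in this design.

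**Figure D3:**
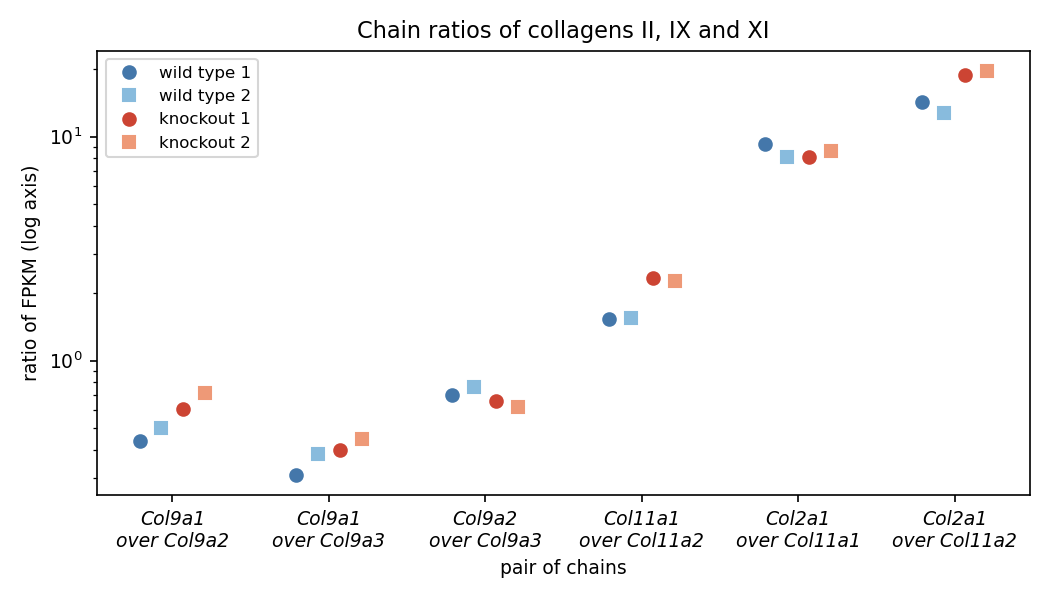
Ratio of FPKM (log axis) for 6 pairs of chains of collagens II, IX and XI; each symbol is 1 library, blue for wild type and red for knockout. Col11a1 over Col11a2 moves from 1.54 and 1.56 to 2.33 and 2.27, while Col2a1 over Col11a1 overlaps between the groups.

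Among all collagen chains, the cartilage set took a larger part of the collagen RNA in both knockout libraries, and the part held by collagen VI was smaller. Of the FPKM of all collagen chains, the 8 genes held 71.2% and 70.5% in wild type and 78.9% and 76.0% in knockout. Most of the rest was Col6a1, Col6a2 and Col6a3, the chains of collagen VI, the collagen of the matrix just around the chondrocyte, with 26.6% and 26.8% in wild type and 19.98% and 22.4% in knockout. None of these 3 passed the test in edgeR (adjusted p = 0.329, 0.658 and 0.269). Their own levels changed little. Col6a1 had 1405 and 1438 FPKM in wild type and 1521 and 1698 FPKM in knockout. Col6a2 had 1183 and 1157 against 1092 and 1204 FPKM, and Col6a3 800 and 767 against 736 and 731 FPKM. All other chains together made up 2.23% and 2.75% in wild type and 1.11% and 1.58% in knockout. Of the 33 collagen genes outside the cartilage set that were tested, 4 fell and 0 rose in edgeR (1 higher and 11 lower at an unadjusted p under 0.05; 1 rose and 5 fell in DESeq2), with a median log2 fold change of -0.36. Among all tested genes, edgeR called 3.62% higher and 5.63% lower, and DESeq2 5.26% and 7.8%. In edgeR, 4016 of the 13773 had an unadjusted p under 0.05, in either direction. Col1a2, a chain of collagen I of bone, tendon and skin, was 2.27-fold lower (edgeR adjusted p = 0.0163). Col15a1, a basement membrane collagen, was 1.89-fold lower, Col16a1 1.43-fold lower and Col17a1 2.33-fold lower. Col2a1 over Col1a2 was 106 and 78.2 in wild type and 366 and 254 in knockout, a 3.34-fold difference, and Col2a1 over Col1a1 was 257 and 168 in wild type and 560 and 343 in knockout. The fibroblast markers, which include Col1a1 and Col1a2, summed lower in the knockout libraries, as given above, and their part in these ratios was not tested.

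**Figure D4:**
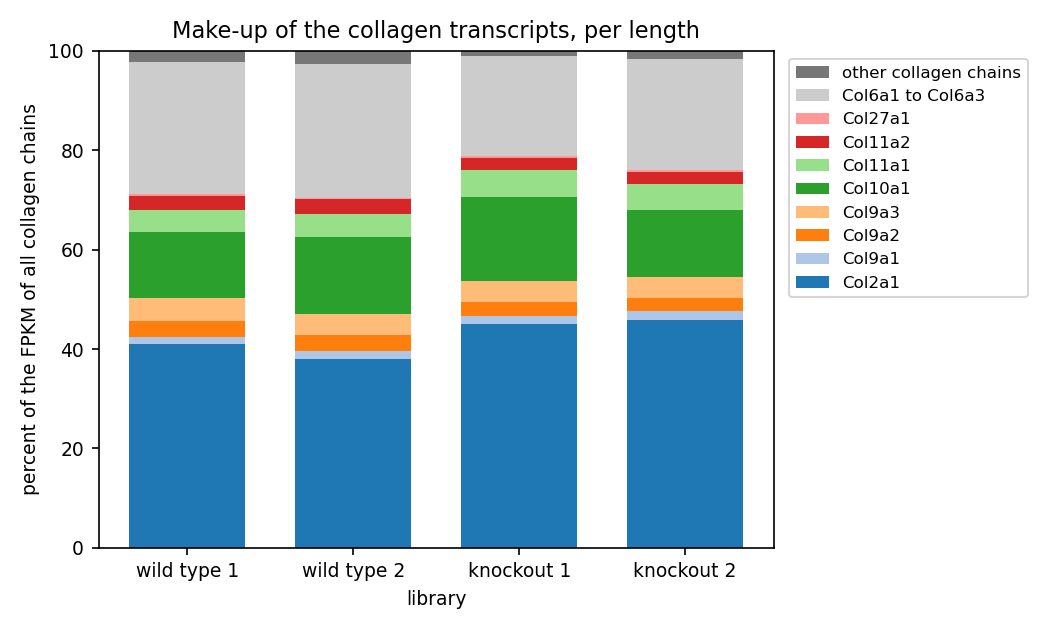
Percent of the summed FPKM of all collagen chains in each library, stacked by chain; grey parts are collagen VI and all other chains. The coloured parts, the 8 cartilage chains, reach 71.2% and 70.5% in wild type and 78.9% and 76.0% in knockout.

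Within the 8 genes alone, 5 chains held parts of the summed FPKM that did not overlap between the groups, and Col2a1, Col9a1 and Col10a1 held parts that did. Over all tested genes, 30.9% were higher and 30.7% lower without overlap in CPM, so such a count is not particular to these chains. The parts restate the changes above relative to each other. Col2a1 held 57.6% and 53.9% of their FPKM in wild type and 57.0% and 60.3% in knockout. Col9a2 held 4.58% and 4.59% in wild type and 3.54% and 3.47% in knockout, and Col11a2 4.03% and 4.24% in wild type and 3.02% and 3.07% in knockout. These were the chains with the smallest fold changes. Col11a1 held 6.19% and 6.61% in wild type and 7.03% and 6.98% in knockout. Col9a3 held 6.52% and 5.98% in wild type and 5.39% and 5.57% in knockout, and Col27a1 0.437% and 0.426% in wild type and 0.553% and 0.520% in knockout. Col9a2, Col9a3 and Col11a2 thus held smaller parts in both knockout libraries, and Col11a1 and Col27a1 larger ones.

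For 6 of the 8 genes, all but Col2a1 and Col9a3, a RefSeq window of 250 bases before the annotated start was at hand (build GRCm38.p6, plus strand). The windows of Col9a1 and Col9a2 are shown because these chains of a single molecule differed in their change, that of Col11a1 because it rose with Col9a1, and that of Col10a1 because it varied most between libraries. Each lies upstream of the gene and is printed up to the base before the earliest annotated start. Capitals mark matches, on either strand, to the motifs searched.
Col9a1, chr1:24177360-24177588: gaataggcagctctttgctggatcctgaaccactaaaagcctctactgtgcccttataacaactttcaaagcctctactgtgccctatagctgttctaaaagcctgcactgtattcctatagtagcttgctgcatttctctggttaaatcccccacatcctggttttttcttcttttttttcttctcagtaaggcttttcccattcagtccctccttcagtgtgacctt
Col9a2, chr4:121039316-121039565: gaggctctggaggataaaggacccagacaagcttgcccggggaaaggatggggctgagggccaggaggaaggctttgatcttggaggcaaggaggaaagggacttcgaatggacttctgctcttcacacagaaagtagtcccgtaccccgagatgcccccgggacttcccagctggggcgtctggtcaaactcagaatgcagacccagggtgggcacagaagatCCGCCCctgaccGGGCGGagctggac
Col10a1, chr10:34389731-34389980: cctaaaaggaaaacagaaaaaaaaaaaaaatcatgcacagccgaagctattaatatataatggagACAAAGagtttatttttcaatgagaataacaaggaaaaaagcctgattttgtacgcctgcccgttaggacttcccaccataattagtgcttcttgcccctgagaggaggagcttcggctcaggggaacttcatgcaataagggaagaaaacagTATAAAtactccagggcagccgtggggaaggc
Col11a1, chr3:114030290-114030478: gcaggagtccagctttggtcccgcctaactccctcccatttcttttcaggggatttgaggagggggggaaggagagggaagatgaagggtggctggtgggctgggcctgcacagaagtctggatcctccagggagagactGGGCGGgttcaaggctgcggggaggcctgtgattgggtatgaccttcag

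The motifs were TATAAA (the TATA box, in 12.4% of all 32851 windows of this length), GGGCGG (the GC box, 32.7%), ACAAAG (16.5%) and ACAAT (27.7%), both cores of SOX sites, TGTGGT (a RUNX core, 14.0%) and TGANTCA (an AP-1 site, 6.75%), and no matches overlapped. The window of Col9a1 held none of the 6 motifs. It also held no CpG, and 7.87% of all windows had no CpG, whatever their motifs. No motif and no CpG were found either in a second Col9a1 window at an inner start that serves the short transcript. The window of Col9a2 held 2 copies of GGGCGG, seen as CCGCCC on the printed strand for the first, and 9 CpG. The window of Col10a1 held TATAAA and ACAAAG, with 5 CpG, and that of Col11a1 held 2 copies of GGGCGG, 1 of them within the printed part, with 7 CpG. Among those not printed, the window of Col11a2 held TATAAA, 2 copies of GGGCGG and 14 CpG, and that of Col27a1 GGGCGG and 15 CpG. Of the chains that rose, the windows thus held no CpG for Col9a1, 7 for Col11a1 and 15 for Col27a1. Of those that did not pass, they held 9 for Col9a2, 5 for Col10a1 and 14 for Col11a2. A link between CpG content and the change was not tested. The motif matches and CpG counts are descriptions of letters and carry no reading of factor binding.

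The known regulators of these genes moved in part. Of the 16 regulators tested, 4 rose and 1 fell in edgeR, beside 3.62% and 5.63% of all tested genes, with a median log2 fold change of 0.01. At an unadjusted p under 0.05 edgeR had 4 higher and 3 lower, and in DESeq2 4 rose and 3 fell. The whole set of 13773 tested genes had 4016 at that unadjusted p, in either direction, and DESeq2 called 5.26% higher and 7.8% lower. Wwp2, a ubiquitin ligase of chondrocytes, had 198 and 200 CPM in wild type and 449 and 435 CPM in knockout, 2.22-fold higher (edgeR adjusted p = 0.00152). Sox6, which with SOX5 supports SOX9 on the Col2a1 enhancer, had 44.0 and 42.8 CPM in wild type and 75.2 and 71.65 CPM in knockout, 1.69-fold higher (edgeR adjusted p = 0.00392). Mef2c rose 2.00-fold (edgeR adjusted p = 0.0206), from 5.28 and 4.94 CPM to 11.5 and 8.93 CPM. Sox5 also rose, and Runx2 fell by 0.58 on the log2 scale (SE 0.10; edgeR adjusted p = 0.0231). Sox9 itself had 665.8 and 612 CPM in wild type and 634 and 490 CPM in knockout, and its edgeR adjusted p of 0.377 missed the threshold.

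Collagen chains are hydroxylated, folded and exported before their ends are cut off and the fibrils crosslinked. Of the 31 genes for these steps, 6 rose and 2 fell in edgeR, with a median log2 fold change of 0.10. At an unadjusted p under 0.05 edgeR had 9 higher and 6 lower, and in DESeq2 8 rose and 5 fell. For comparison, edgeR called 3.62% of all tested genes higher and 5.63% lower, and DESeq2 5.26% and 7.8%. The unadjusted count of edgeR over all 13773 genes was 4016, in either direction. Lox, which oxidises lysines for crosslinks, had 1577 and 2349 CPM in wild type and 780 and 910 CPM in knockout, 2.32-fold lower (edgeR adjusted p = 0.0154). Loxl4, of the same enzyme family, went the other way, with 907 and 1165 CPM in wild type and 1626 and 1842 CPM in knockout, 1.67-fold higher (edgeR adjusted p = 0.0236). P3h3, of the prolyl 3-hydroxylase family, rose 1.38-fold (edgeR adjusted p = 0.0247). The other genes that rose were P3h4, Fkbp10, Colgalt2 and Adamts3, and the other that fell was Loxl2.

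Among 16 partners of the fibril in the cartilage matrix, 3 rose and 6 fell in edgeR, with a median log2 fold change of -0.11. At an unadjusted p under 0.05 edgeR had 7 higher and 7 lower, and in DESeq2 5 rose and 6 fell. The shares of all tested genes called were 3.62% higher and 5.63% lower in edgeR, and 5.26% and 7.8% in DESeq2. Those at an unadjusted p under 0.05 in edgeR, in either direction, were 4016 of 13773. Comp, which binds collagens II and IX, had 489 and 450 CPM in wild type and 124 and 138 CPM in knockout, 3.58-fold lower. Matn1, a matrilin that links fibrils to other matrix, had 29.3 and 30.7 CPM in wild type and 6.04 and 7.95 CPM in knockout, 4.29-fold lower (edgeR adjusted p = 0.00182). Ucma, a small secreted cartilage protein, rose 3.49-fold. Matn3, another matrilin, and Epyc, a small proteoglycan, rose as well, so the partners of the fibril went both ways while the 4 chains rose. Acan, the main proteoglycan of cartilage, had 6452 and 6175 CPM in wild type and 8365 and 7504 CPM in knockout (edgeR adjusted p = 0.0687, which missed the threshold).

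Of the 7 collagen receptors tested, 2 fell and 0 rose in edgeR (3 lower and 0 higher at an unadjusted p under 0.05; 2 fell and 0 rose in DESeq2), with a median log2 fold change of -0.40. Itga10, the integrin chain of the chondrocyte's collagen II receptor, had 74.9 and 78.1 CPM in wild type and 39.1 and 39.4 CPM in knockout, 1.95-fold lower (edgeR adjusted p = 0.00188). Itga1, another collagen-binding integrin chain, fell 1.92-fold (edgeR adjusted p = 0.0401). Of the 10 collagen-cleaving proteinases and inhibitors tested, 1 rose and 1 fell in edgeR, with a median log2 fold change of -0.23. Timp1, an inhibitor of metalloproteinases, rose 1.503-fold, and Mmp8, a collagenase, fell 2.03-fold. At an unadjusted p under 0.05 edgeR had 1 higher and 2 lower, and in DESeq2 1 rose and 1 fell. Beside both lists, edgeR called 3.62% of all tested genes higher and 5.63% lower, and DESeq2 5.26% and 7.8%. At an unadjusted p under 0.05 edgeR had 4016 of 13773 genes, in either direction. These lists are too short to be set apart from such shares.

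Among 13 genes of hypertrophic chondrocytes beside Col10a1, 1 rose (Mef2c) and 3 fell in edgeR, as in DESeq2. All tested genes gave 3.62% higher and 5.63% lower in edgeR, and 5.26% and 7.8% in DESeq2. They gave 4016 of 13773 at an unadjusted p under 0.05 in edgeR, in either direction. The median log2 fold change of the 13 genes was -0.55. At an unadjusted p under 0.05 edgeR had 1 higher and 5 lower of the 13. Of those called lower in edgeR, Vegfa, which draws in blood vessels, fell 1.82-fold, Spp1, a phosphoprotein of mineralising matrix, fell 1.57-fold, and the other was Runx2. Mmp13, the collagenase of late hypertrophic cells, had 230 and 361 CPM in wild type and 67.4 and 175 CPM in knockout, and its edgeR adjusted p was 0.109. Col10a1 thus lay on the higher side in knockout, at 0.42 on the log2 scale without passing the test, while the median of this list lay on the lower side. That median was the value of Sp7, which had few counts, at 0.946 to 2.31 CPM (edgeR adjusted p = 0.363). Ihh, Pth1r, Alpl, Ibsp, Panx3 and Dlx5 lay low too, at 0.244 to 4.17 CPM. In these 7 lists the counts of calls rested on both wild type libraries, since without either of them edgeR called 0 of all genes, as given above.

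The genes whose profile over the 4 libraries was most like that of Col2a1 were Naa10, Klhl5 and Gpx8, with root mean square differences of centred log2 CPM of 0.012, 0.013 and 0.013 among 9627 genes averaging at least 5 CPM. The nearest other chain was Col11a1, at rank 243 (0.079), followed by Col9a1 at rank 499, while Col11a2 came at rank 4260. For Col10a1 the nearest were Zfp61, Leng9 and Bcl2 (0.029, 0.029 and 0.040), and the nearest other chain was again Col11a1, at rank 288. With 4 libraries such profiles describe likeness in these libraries only.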

How the data were processed

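RNA-seq values of 2 wild type and 2 knockout libraries were used, with groups and replicate numbers from the titles. The authors deposited an expected count and an FPKM value per gene and library, per the file headers, and a DESeq2 comparison with mean normalized signal, log2 fold change and p-value per gene. Bowtie2 2.2.5 and mm9 are named in the submitters' processing notes. The sources used here do not give the counting tool or whether strand was used. Overlapping and near-identical genes can share reads.

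Expected counts were rounded, then fitted in edgeR 4.0.16 under R 4.3.3 (TMM scaling, filterByExpr, quasi-likelihood F test, Benjamini-Hochberg over all tested genes, threshold 0.05); the script was checked on simulated data. Each SE was the size of the log2 fold change divided by the root of F. CPM in comparisons and gene lists is TMM-scaled. Marker sums, and the levels of single marker genes given with them, are unscaled CPM. The biological coefficient of variation was 10.3%. Chain ratios used FPKM. Shares used all expected counts. Alternatives used DESeq2 1.42.0, limma 3.58.1, other scalings and filters, a replicate block and leaving out libraries.

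The chains and the gene and marker lists were chosen with earlier results of these data known. Named genes are the 8 chains, Kdm6a, Kdm6b, up to 3 called genes of smallest p per list, and the 3 nearest profiles of Col2a1 and Col10a1. Other genes named were chosen after their values were seen. Coordinates are given for RefSeq windows of GRCm38.p6 only, since the files use mm9. Protein sequences were not analysed here.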

Additional observations from a re-analysis of the deposited data

How the results depend on the processing

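The 4 chains that rose in edgeR passed in every alternative with all 4 libraries except limma on log2(FPKM + 0.1) with no filter, which called 0 of the 8 and 0 of all genes (4055 at an unadjusted p under 0.05; adjusted p 0.0879 to 0.171 for the 4 chains). Leaving out 1 library gave 0 to 5 chains in edgeR: 0 without wild type replicate 1 or 2, 4 without knockout replicate 1 and 5 without knockout replicate 2. DESeq2 refits without 1 library, chosen after seeing the data, called 4 or 5 chains. In such fits the lone library of a group is assumed to vary like the others. Col11a2 reversed to -0.0084 in DESeq2 without knockout replicate 1 and to -0.00045 without wild type replicate 1, and edgeR without 1 library gave -0.0042 to 0.079; the cause was not tested. Over the 18 alternatives the fold of Col2a1 was 1.42 to 1.52, of Col9a1 1.40 to 1.60, of Col11a1 1.46 to 1.59, of Col27a1 1.62 to 1.86 and of Col10a1 1.16 to 1.52. The log2 ratio of the chains' share of counts was 0.53, and 0.47 as a share of summed FPKM. With the replicate block 4 chains rose, and 949 genes rose and 1367 fell in all, against 498 and 776 without it; deviations of same-numbered libraries correlated at 0.107 over 2 pairs, which share only a number. Without a filter on low counts 265 rose and 455 fell. DESeq2 without 1 library called 124 to 224 genes higher and 292 to 570 lower. The calls in a gene list ranged from 0 to at most 9 higher or 11 lower; no list had a call without wild type replicate 1, without wild type replicate 2 or in limma with no filter, and single lists lost their calls in 1 direction under other alternatives too. Counting errors came to at most 2.06% of a chain's share of counts, and 2 libraries a group limit every test.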
